A study of Homo sapiens with 8 samples.

Results

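Among RNAs that were abundant in cell lysates, 44 counting rows of the deposited table kept their place in the microvesicles of TRACE cultures and were nearly missing from those of control cultures. HEK 293T, a human embryonic kidney line, was transfected either with the construct pair (C1: GFP joined to YTHDF1, with the GFP-binding protein GBP1 joined to CD9) or with the control pair (GFP alone, with the same GBP1-CD9). All groups thus carried GFP and GBP1-CD9, and they shared medium with exosome-depleted serum and RNase A. There were 8 libraries: construct microvesicles (replicates II and III), control microvesicles (I and II), construct cells (II and III) and control cells (I and II). The labels do not say whether replicates are separate cultures, so the spread between them may be technical, and they name no clone, promoter or expression level of the fusions.

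YTHDF1 is a cytoplasmic protein that binds messenger RNA at N6-methyladenosine, a methyl mark that tends to lie near stop codons and in the 3' untranslated region, and it is known for aiding translation. CD9 is a tetraspanin of the plasma membrane and of shed vesicles. Joining the reader to CD9 through GFP and its binder was meant to carry reader-bound RNA into vesicles, where the medium's RNase A removes unprotected RNA. The design text gives this comparison of vesicles with the lysate of the same cultures.

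The members were chosen from the counts themselves. Chromosome 1 rows were used, since all 1190053 counts of the 63568 rows lay on the 5363 rows of that chromosome. The 2 rows called dominant here were left out of rows and totals. With them the totals were 34602 and 64025 counts in construct and 238416 and 479140 in control microvesicles. Without them they were 30552 and 45946, and 138827 and 150999. The 2 rows thus held a larger part of control than of construct microvesicle counts, and leaving them out raises the control shares more. A row entered if it had at least 100 counts over the 4 cell libraries, a pooled share in control microvesicles of at most 0.1 of its share in cells, and a pooled share in construct microvesicles of at least 0.5 of it. Of 406 rows with enough cell counts, 44 (10.8%) met both limits. The rule also sets aside 11 rows by name, and 0 of them had met the limits. Every fold between construct microvesicles, control microvesicles and cells below follows from this choice and is a description.

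Names need care. The rows are exon sets of GENCODE release 19 in hg19 coordinates, but the counts appear to sit at GRCh38 positions, so that a row's symbol need not name the gene counted there. This is an inference from abundance and not stated by the labels. The rows at GRCh38 positions of mitochondrial ribosomal proteins had a median of 1698 cell counts (4 rows), against 1 for the rows that carry those symbols (7 rows). Over all the gene lists this contrast was absent, with a median of 15 for 303 rows by position and 15 for 197 rows by symbol. Single lists went both ways. Splicing (70 against 7) and cell cycle genes (52.5 against 19) were higher by position. Signalling (4.5 against 24.5), metabolism (6 against 17) and histone and chromatin genes (6 against 16.5) were higher by symbol. The names are thus uncertain. Each member was called by the GRCh38 protein-coding gene (RefSeq) whose span shares the most bases with it, and the row symbol is given once in brackets. By this rule 43 members received a name, 22 lay on 1 coding gene and 20 on more than 1, and in 5 the row symbol itself was among the overlapped genes. Gene spans hold introns, so where a row touches several genes the source of its counts cannot be told apart. The kit does not mark strand, so sense and antisense RNA cannot be told apart either.

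Total counts without the 2 dominant rows were 30552 and 45946 in construct microvesicles, 138827 and 150999 in control microvesicles, 42908 and 58637 in construct cells, and 109051 and 163019 in control cells. Control microvesicles thus had more counts than construct microvesicles, so a count of 0 there sets a tighter limit. Levels below are counts per 1000000 of these totals (CPM), which are not per base, so an order of rows by CPM is an order of counts. Reads carry no molecular identifiers, so intervals and floors cover counting error only. Of the 3 marker genes seen in HEK 293T, NES and LIN28A were at 0 by position and STMN1 had 0 and 130.6 CPM in construct microvesicles, 252 and 278 in control microvesicles and 0 to 68.2 in cells. At 0 as well were S100A9, S100A12, CD2, CD1C, SELE, SELP, LORICRIN, IVL, SPRR1B and ACTA1 of other cell types. A locus at 0 may only lack a counting row there, so this does not check the cell line. The 4 lymphoid rows summed to 98.2 to 217.6 CPM in construct microvesicles, 324 to 417 in control microvesicles and 578 to 681 in cells. The 2 keratinocyte rows summed to 0 and 457 CPM in construct microvesicles, 258 to 612 in control microvesicles and 12.3 to 46.6 in cells. The 7 muscle rows summed to 1080 and 1458 CPM in construct microvesicles, 450.3 and 778 in control microvesicles and 810 to 1128 in cells, and the 3 myeloid rows to 0 to 43.5 in all libraries. Their part in the members' levels was not tested.

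N6-methyladenosine lies in a short consensus of which GGACT is a common form. The stretches below show, for the 6 members highest in construct microvesicles and for 2 members on a single coding gene, the GGACT nearest to the end of the coding sequence. They come from the canonical transcript of each named gene in GENCODE release 44 (lifted to GRCh37), 5′ to 3′ on the transcript strand, with the motif in capitals. A match is a description of letters, not a methylated or bound site. The stretches are not sequence counted at the rows, since the exons under the rows could not be named. At STK40, BOLA1, UBE2J2 and NAXE the named gene's span holds only 27.2%, 27.6%, 38.0% and 44.7% of the bases of the row.
STK40: ctgtagtgctGGACTctcccgggcc
FLAD1: acccactgctGGACTggacctacag
BOLA1: tcgtttcgagGGACTgagcccccta
RABIF: gtaactatgaGGACTtctgcttctg
NAXE: caatgaaaatGGACTgttagatgcc
UBE2J2: ccggcaccacGGACTcctgggtggc
MRPS14: cttttctcttGGACTtaacaaacat
CHTOP: aataggctgtGGACTtacttgccac

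In STK40, RABIF, NAXE, MRPS14 and CHTOP this motif lies past the coding end, at a distance of 91, 2439, 202, 200 and 121 bases. In FLAD1, BOLA1 and UBE2J2 it lies inside the coding sequence, 207, 176 and 98 bases before its end. GGACT was searched on the transcript strand only, and it overlaps no other motif searched. Of 38 member genes with a canonical coding transcript, 37 (97.4%) held it, against 263 of 278 genes (94.6%) at the other rows abundant in cells. Pooled over transcripts, member genes had 1.02 and the others 0.958 motifs per kb, values that lie close together and carry no test. The member gene without a match was CCDC181. Member transcripts had a median length of 2880 bases and a GC content of 51.4%, against 3734 bases and 46.96%. For the 20 transcripts of members on 1 coding gene, the values were 3215 bases, 44.5% GC and 0.835 pooled motifs per kb. In that set, GC content and motif density were thus below those of the genes at the other cell-abundant rows. These are traits of the named genes' transcripts, not of the RNA counted in vesicles.

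The members took 26.6% and 13.6% of counts in construct microvesicles II and III, 0.473% and 0.345% in control microvesicles I and II, 9.82% and 9.61% in construct cells, and 9.06% and 9.90% in control cells. The group means were 20.1% ± 9.16 (SD, n = 2), 0.409% ± 0.0907, 9.71% ± 0.150 and 9.48% ± 0.598. With the 2 dominant rows kept in the totals, construct microvesicles had 23.5% and 9.78%, and library III then lay within the cell range of 9.06% to 9.90%. The vesicle values follow from the rule. In bulk libraries, more RNA of a gene per vesicle and more vesicles that carry it cannot be told apart. The rule used the cell values only as a pool. The members' share of construct and control cells overlapped (exact two-sided permutation test, p = 1, where 2 against 2 cannot go below 0.33). The rows of STK40 and FLAD1 alone held 11.2% and 5.44% of construct microvesicle counts, and the other members together held 15.4% and 8.19%.

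**Figure D1:**
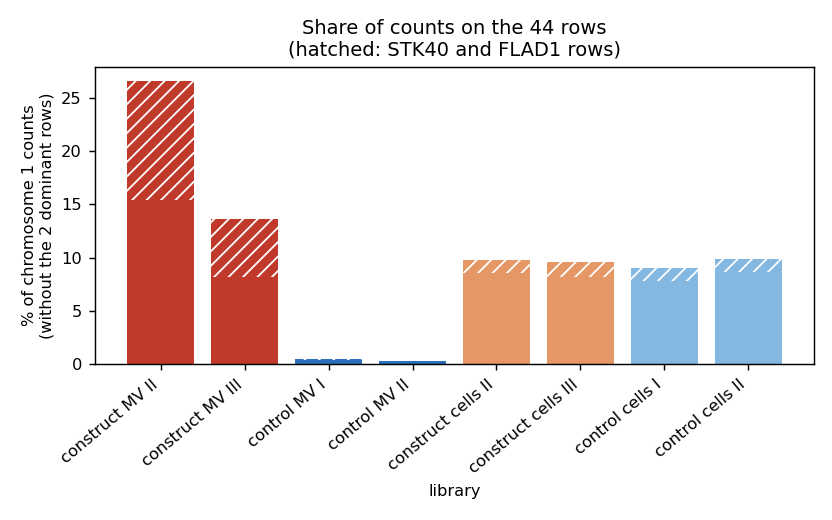
Bars give, for each of the 8 libraries, the percentage of chromosome 1 counts (without the 2 dominant rows) that lies on the 44 rows; the hatched part is the rows at STK40 and FLAD1. Construct microvesicles (MV) stand at 26.6% and 13.6%, control microvesicles at 0.473% and 0.345%, and the 4 cell libraries between 9.06% and 9.90%.

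Against cells, the members had a median ratio of 1.12 in construct microvesicles (0.508 to 11.5) and of 0.0233 in control microvesicles (0 to 0.0973). Over all 406 cell-abundant rows these medians were 0.526 and 0.282. In 27 members the construct share was at least that of the cells, and in 12 it was at least 2 times as large. Both construct libraries lay above all 4 cell libraries in 12 members, and both control microvesicle libraries lay below all 4 cell libraries in 44 of 44. The rule shaped these counts, and no share over all rows is set beside them. In 13 members control microvesicles had a count of 0 in both libraries, and in 3 they had 1 to 3 counts.

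**Figure D2:**
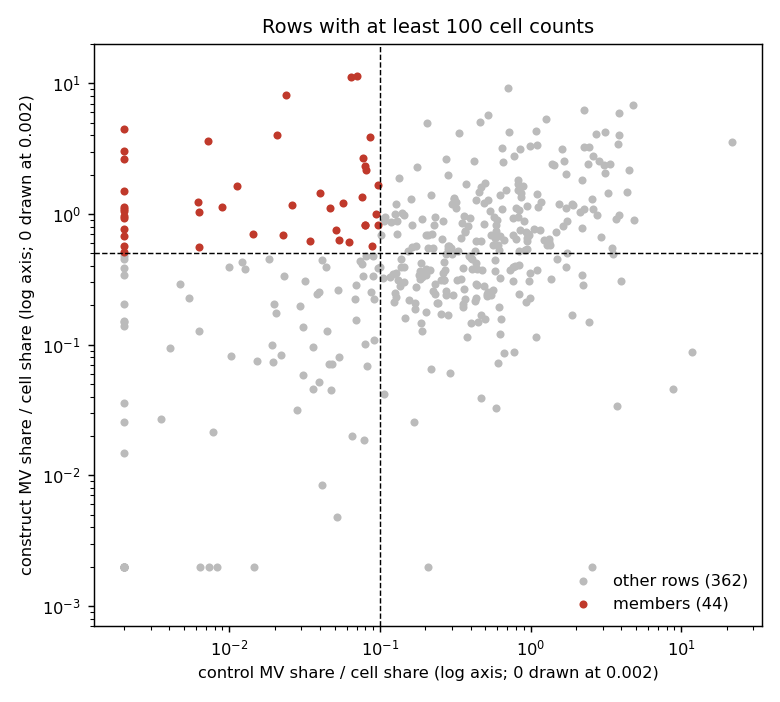
Each point is 1 of the 406 rows with at least 100 cell counts, placed by its share in control (x) and construct (y) microvesicles, each divided by its share in cells, on log axes with 0 drawn at 0.002. Dashed lines are the limits of the rule at 0.1 and 0.5, and the 44 members fill the upper left field by construction.

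The limits cut through a continuous cloud. Just inside the control limit were the rows of SSX2IP (ratio 0.0973), SSR2 (0.0963) and RNF115 (0.0935), and just outside it those of AURKAIP1 (0.101), IL12RB2 (0.106) and a second row at OAZ3 (0.108). At the construct limit ALG6 (0.508), PANK4 (0.563) and GLMP (0.565) were inside, and PSMD4 (0.480), SERBP1 (0.477) and ATF3 (0.473) were outside. The members with the fewest cell counts were RBBP5 (107) and the row WASH7P at LOC124905564 (117), which belongs to a multicopy family and whose counts are uncertain, while rows at SLC35E2B (93) and ITGB3BP (92) missed the count limit.

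Replicates of construct microvesicles were uneven, and 9 members rest on 1 library. The rows of ADH5P2, a pseudogene, and TOR1AIP2 had counts only in library II. Those of MPZL1 (2 rows), PANK4, TMEM222, RBBP5, ALG6 and GLMP had counts only in library III, with 14 to 91 counts. The other 35 had counts in both, with a median of 2.72-fold between the libraries, 15 of them within 2-fold and 7 over 5-fold apart. Library II was the higher in 30 of 44 members. Taking each construct library with each control microvesicle library on its own, 19 members met both limits in all 4 pairings, 22 in 2 and 3 in only 1.

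**Figure D3:**
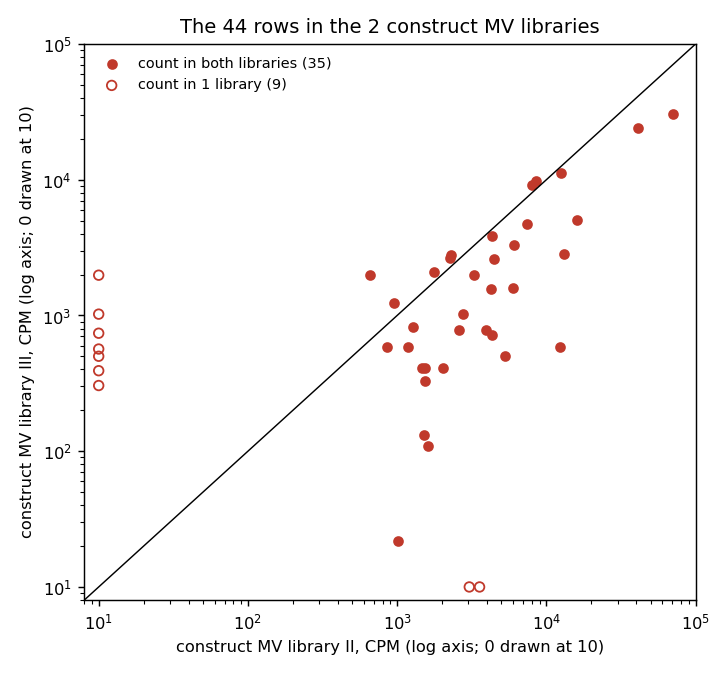
Each point is a member, placed by its CPM in construct microvesicle library II (x) and III (y) on log axes, with 0 drawn at 10 and the line marking equal levels. Filled points (35) have counts in both libraries and open points (9) in 1; most filled points lie below the line, that is, higher in library II.

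The named rows are described by the known role of a gene under them, a grouping made after the values were seen. For RNA processing and translation, the highest member (row symbol AGO1, hg19 chromosome 1, 36335409 to 36395211) lies on STK40, a kinase-like protein. The row is placed in this group only because it also touches LSM10, a part of the U7 particle that processes histone messenger RNA. STK40 holds only 27.2% of the bases of the row. The row had 70830 and 30362 CPM in construct microvesicles, 202 and 331 in control microvesicles, and 3714 to 4673 in cells. Its construct level was 16.97 and 7.28 times the cell share in libraries II and III, so both vesicle libraries stood above every cell library. The pooled ratio to control microvesicles was 173, and it was 113 without construct library II and 263 without III.

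CHTOP, a part of the complex that couples transcription to mRNA export, holds the row ILF2 (153634512 to 153643524). It had 3273 and 2002 CPM in construct microvesicles, 267 and 79.5 in control microvesicles and 3098 to 4025 in cells. MRPS14, a protein of the small mitochondrial ribosomal subunit, holds the row ENTR1P2 (175013762 to 175014784). This row had 12307 CPM in construct library II but 588 in III, a count of 0 in both control microvesicle libraries, and 7726 to 7854 CPM in cells. The cells were thus very even, while the vesicles ranged from 1.58 to 0.0756 times the cell share, so library III alone would have failed the limit. Against the floor of 3 counts over both control libraries, the pooled level was at least 509-fold higher, and at least 56.8-fold without library II.

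UBAP2L, an RNA-binding protein of stress granules, overlaps the row of its own name (154192655 to 154243986). Its levels were even within each group: 4320 and 3831 CPM in construct microvesicles, 403 and 377 in control microvesicles, and 4466 to 5526 in cells. PUSL1, named for its likeness to pseudouridine synthases, holds the row AURKAIP1 (1309110 to 1310875). It had 4353 and 718 CPM in construct microvesicles, 21.6 and 13.2 in control microvesicles and 1492 to 2251 in cells, so library II was above and library III below the cells.

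Rows at genes of metabolism and mitochondria included members on both sides of the cell level. FLAD1, the FAD synthase, shares the row ZBTB7B (154975127 to 154990998) with CKS1B, a partner of cyclin-dependent kinases. This row had 41208 and 24072 CPM in construct microvesicles, 86.4 and 39.7 in control microvesicles, and 8269 to 9226 in cells. The pooled ratio between the vesicle groups was 498, and it was 778 without control library I and 358 without II. BOLA1, a mitochondrial protein of the BolA family, lies under 27.6% of the bases of the row SF3B4 (149895209 to 149900236). The levels there were 12602 and 11144 CPM in construct microvesicles, 115 and 33.1 in control microvesicles, and 769 to 1177 in cells. At 12.3 and 10.9 times the cell share this was the highest pooled ratio to cells among the members, and the 2 construct libraries were close.

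NAXE, which repairs damaged NADH and NADPH, shares the row HAPLN2 (156589086 to 156595517) with GPATCH4. It was the member with the most cell counts, 4200, at 10539 to 14496 CPM. Construct microvesicles had 8510 and 9729 CPM, both below every cell library, and control microvesicles had 1232 and 596. SLC25A44, a mitochondrial carrier of branched-chain amino acids, holds most of the row BGLAP (156211753 to 156213112). It had 949 and 1241 CPM in construct microvesicles, within the cell range of 810 to 1467, and 2 counts in control microvesicles (ratio 163, 95% interval 43.7 to 1367).

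Several rows lie on genes of the endoplasmic reticulum, Golgi and protein turnover. RABIF, a chaperone of Rab GTPases, holds the whole of the row HNRNPA1P59 (202880940 to 202881857). It had 15973 and 5049 CPM in construct microvesicles, 0 and 53.0 in control microvesicles and 921 to 1374 in cells. Both construct libraries stood above all cells, at 13.7 and 4.34 times the cell share. UBE2J2, a ubiquitin-conjugating enzyme of the endoplasmic reticulum, takes the largest coding part of the row INTS11 (1246965 to 1260071), 38.0% of its bases. The construct vesicle libraries were close there, at 8052 and 9076 CPM, against 439 and 166 in control microvesicles and 2865 to 4263 in cells.

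TXNDC12, a thioredoxin-like protein of the endoplasmic reticulum, was met by 2 rows on opposite strands. The row CALR4P (52027538 to 52060569), which also touches KTI12 and BTF3L4, had 4451 and 2590 CPM in construct microvesicles, 0 counts in both control libraries and 656 to 1049 CPM in cells. The row EPS15-AS1 (51983981 to 52027301), which also touches RAB3B, had 1506 and 131 CPM, 1 control count and 403 to 650.2 CPM in cells. Only the first stood above the cells in both libraries. SSR2, a subunit of the translocon-associated complex, holds 39.4% of the bases of the row UBQLN4 (156005092 to 156023585). It had 655 and 2002 CPM in construct microvesicles, 259 and 92.7 in control microvesicles and 1095 to 2368 in cells. Construct library II was below every cell library and library III within their range, and the ratio between vesicle groups was 8.49 pooled and 3.79 without library III.

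SCAMP3, a membrane carrier protein of the trans-Golgi and endosomes, holds 54.2% of the bases of the row HCN3 (155247374 to 155259639). This row had 1767 and 2089 CPM in construct microvesicles, 230.5 and 172 in control microvesicles and 2626 to 3706 in cells. Here both construct libraries were below every cell library. CLSTN1, a cargo adaptor of kinesin, holds nearly all of the row PIK3CD (9711790 to 9789172), which by position also overlaps PIK3CD itself. This row had 5302 CPM in construct library II and 501 in III, against 295 and 457 in control microvesicles and 3950 to 5372 in cells. Its ratio between vesicle groups was 6.37 pooled and 1.32 without construct library II, so this member rests on that library. RNF115, a ubiquitin ligase, shares the row GPR89A (145764411 to 145827103) with POLR3C, a subunit of RNA polymerase III. The row had 6023 and 3286 CPM in construct microvesicles, 425 and 391 in control microvesicles and 4116 to 4987 in cells.

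The remaining named rows lie on genes of mixed roles. DEDD, a nuclear protein with a death effector domain, was met by 2 rows on opposite strands that also touch NIT1. The row UFC1 (161122566 to 161128646) had 5990 and 1589 CPM in construct microvesicles, 28.8 and 6.62 in control microvesicles and 712 to 1119 in cells. The shorter opposite row (161123550 to 161129139) had 851 and 588 CPM, 0 counts in both control libraries and 386 to 559 CPM in cells. In both rows every construct vesicle library was above every cell library. S100PBP, a binding partner of S100P, holds the row TSSK3 (32817122 to 32829913), with 2258 and 2655 CPM, 28.8 and 6.62 in control microvesicles and 1328 to 1740 in cells. Both construct libraries were above all cells there too.

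PPFIA4, a liprin of the synaptic scaffold, shares the row of its own name (202995626 to 203047868) with TMEM183A. Construct microvesicles had 13191 and 2829 CPM and control microvesicles 50.4 and 252. The cells were uneven here, at 2284 and 2677 CPM in construct and 3778 and 9576 in control cells. OAZ3, an ornithine decarboxylase antizyme, shares the row TDRKH-AS1 (151763280 to 151766878) with TDRKH and MRPL9, a protein of the large mitochondrial ribosomal subunit. Construct microvesicles had 2291 CPM, just below the cell range of 2540 to 3090, and 2808, within it, and both control libraries had 0 counts (at least 251-fold higher).

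HFM1, a helicase of meiosis, holds a row without a gene symbol of its own (91326107 to 91328477). The row also overlaps FEN1P1, which is not a protein-coding gene, so the source of its counts cannot be told apart. It had 7364 and 4679 CPM in construct microvesicles, 0 counts in both control libraries and 2024 to 2626 CPM in cells. That level was at least 556-fold higher, and at least 452-fold without construct library II. Of the rest, CCDC181 had 3928 and 784 CPM against 86.4 and 6.62, HDGF, a heparin-binding growth factor, had 2782 and 1023 against 115 and 33.1, and LRIF1, a nuclear-receptor-interacting protein, had 2586 and 784 against 64.8 and 19.9. CCDC181 was above all cells in both construct libraries, while HDGF and LRIF1 straddled the cell range. The member on no RefSeq gene (168370067 to 168391894) had 4288 and 1567 CPM, 0 counts in both control libraries and 2348 to 3636 CPM in cells.

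**Figure D4:**
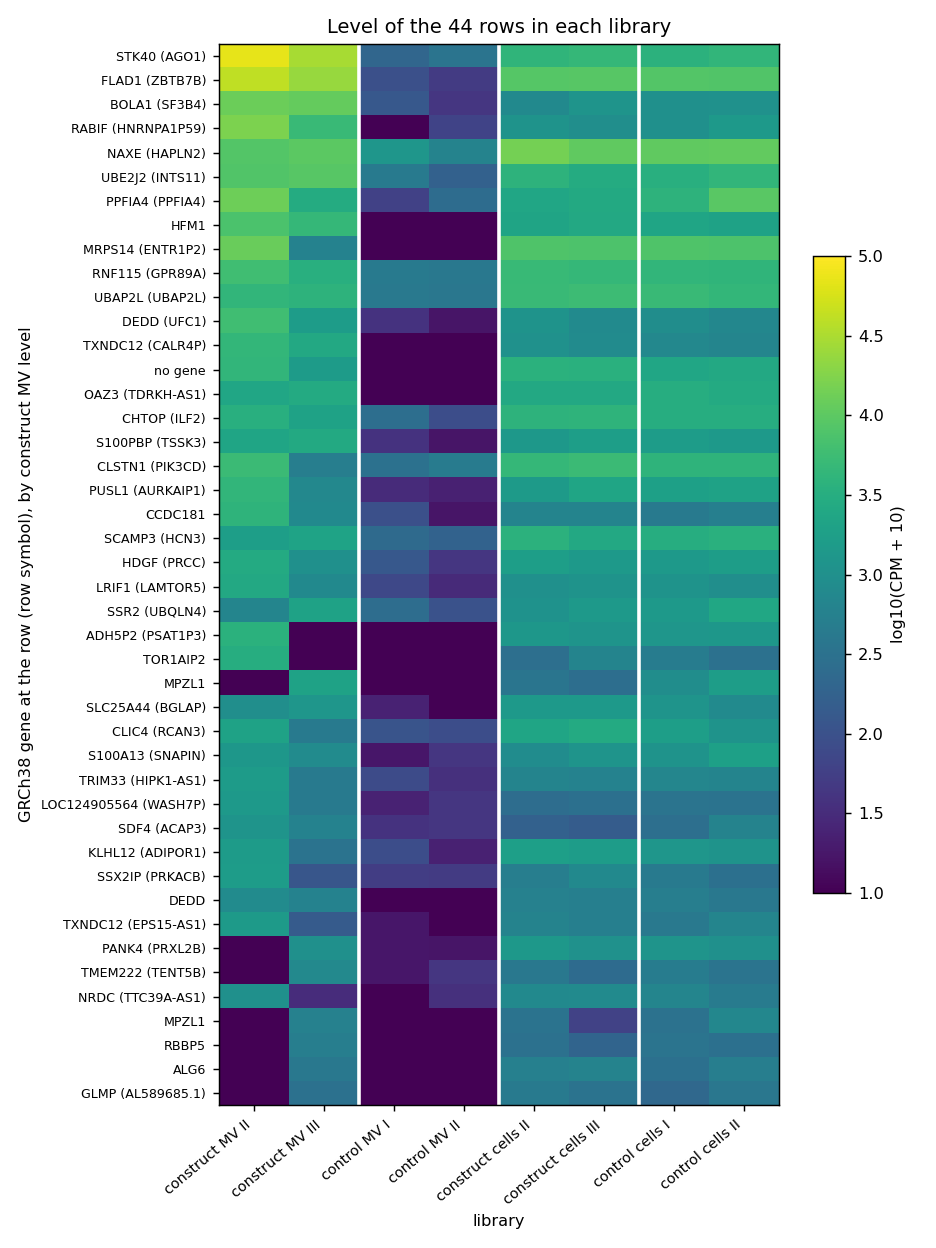
Rows are the 44 members in order of their pooled level in construct microvesicles, columns the 8 libraries, and color gives log10(CPM + 10). The 2 control microvesicle (MV) columns are darker than the cell columns in every row, and 9 rows are dark in 1 of the 2 construct microvesicle columns.

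The members outside the rule for named genes had lower pooled construct levels or counts in 1 library only, and the loci given here were picked after their values were seen. The 10 with counts in both construct libraries lay on CLIC4, a chloride channel protein, S100A13, a calcium-binding protein, TRIM33, SDF4, a calcium-binding protein of the Golgi, KLHL12, an adaptor of a ubiquitin ligase, SSX2IP, NRDC, LOC124905564 and the second rows of DEDD and TXNDC12. Of the bases of the rows at CLIC4, SSX2IP and SDF4, the named gene held only 9.62%, 32.8% and 31.2%. NRDC had 31 counts in library II and 1 in III. Its library III level of 21.8 CPM was below the 26.5 CPM of control library II. In 34 of 44 members both construct libraries lay above both control libraries. The others were NRDC and the 9 members with counts in 1 library. The choice of members shaped this count, and no share over all rows is set beside it. For MPZL1, a cell surface glycoprotein, 2 rows on opposite strands had the same pattern over the vesicles, with 91 and 26 counts in construct library III and 0 in the other 3.

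Membership belonged to rows, not to whole genes. At the genes of the members, 14 further rows had at least 100 cell counts and did not meet the limits. Their median ratio to cells was 1.04 in construct and 0.276 in control microvesicles, and in 10 of the 14 the construct ratio was the higher. A second KLHL12 row had 2.65 and 0.272, and a second S100PBP row 4.16 and 0.337. At RBBP5 the order was the opposite, with 0.778 in construct and 2.17 in control microvesicles. Within UBAP2L, the row of SNORD59 had 225 cell counts and 0 in all 4 vesicle libraries.

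As rows, members were short and dense. Their median exonic length was 2132 bases (177 to 12886) and their median density in cells 277 counts per kb, against 4905 bases and 71.3 counts per kb for the other 362 cell-abundant rows. The 37 rows scarce in both vesicle groups (at most 0.1 of cells in each) were alike in this, at 2291 bases and 323 counts per kb. The 105 rows kept in both (at least 0.5 in each) were longer and sparser, at 7293 bases and 26.7 counts per kb. The reverse pattern, at least 0.5 in control and at most 0.1 in construct microvesicles, was met by 8 rows. By strand, 23 members were on the plus and 21 on the minus strand, and the first read column gave a median of 51.5% of a member's counts.

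The gene lists of pathways and complexes held few members. For 8 mitochondrial ribosomal genes on chromosome 1, 4 cell-abundant rows took a name from the list and 1 of them, MRPS14, was a member; members also touched MRPL9 and MRPL24. Of 10 cell-abundant rows named for proteasome and ubiquitin genes, UBE2J2 and UBAP2L were members, and of 6 for membrane traffic genes SSR2 was. Cytosolic ribosome (2 rows), splicing (5), other RNA-binding and translation (8), respiratory chain (5), cell cycle (8), histone and chromatin (12), metabolism (3) and signalling (8) genes gave 0 members, though members touched LSM10, PRCC, YARS1, CKS1B, GPATCH4 and POLR3C. The m6A reader YTHDF2 gave a name to 1 row, with 1 cell count and 0 in vesicles. The row PHACTR4, named by position for OPRD1, also touches YTHDF2, so the source of its counts cannot be told apart. With 41 cell counts it missed the count limit of 100. Its ratio to cells was 2.62 for construct vesicles (2 and 20 counts) and 7.39 for control vesicles (170 and 65 counts). The counts of members per list are set beside the 10.8% of all cell-abundant rows that are members and carry no test.

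The comparison that the rule did not use is that of construct with control cells, where the question is whether the members differed in the lysates already. In edgeR's quasi-likelihood test over 1113 features (all 44 members passed the low-count filter), 0 members and 0 features (0%) passed an adjusted p of 0.05 in either direction, and 0 members had an unadjusted p under 0.05 (10 features did). DESeq2 likewise called 0 features, and 5 of the 1113 had an unadjusted p under 0.05 there. The members' median log2 fold change was -0.21 (-2.40 to 0.60), against -0.16 over all features tested, with a median SE of 0.92. Of the 44, 40 lay within 1 log2 unit (90.9%, against 79.9% of all features tested). With an SE of this size, a missing call is no sign of equal levels.

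The largest differences in cells were lower levels in construct cultures. The SDF4 row (ACAP3, 1227756 to 1244989) had 163 and 136 CPM in construct and 275 and 601 in control cells, a log2 fold change of -1.88 ± 0.90 (SE, edgeR adjusted p = 1). PPFIA4 had -1.75 ± 1.11 (edgeR adjusted p = 1), with control cell library II the highest. The longer MPZL1 row had 350 and 273 CPM against 917 and 1705 (-2.40 ± 1.46, edgeR adjusted p = 1). With the 4 cell libraries alone and the same features, edgeR called these 3 rows and the second MPZL1 row lower in construct cells (21 of all 1113 features were called, 21 of them lower; adjusted p = 0.0253, 4.73e-11, 3.15e-07 and 0.0182 for SDF4, PPFIA4 and the 2 MPZL1 rows). With the filter run on those 4 libraries it called 0 of 628 features. The rows at SDF4 and MPZL1 reached the rule's floor of 100 cell counts mainly through control cells, so their calls are a description. The SDF4 row had 7 and 8 counts in construct and 30 and 98 in control cells. The longer MPZL1 row had 15 and 16 against 100 and 278, and the second 14 and 3 against 34 and 114. PPFIA4 had 98 and 157 counts in construct cells. The construct and control cell libraries did not overlap in 20 members (45.5%; 41.4% of the 1111 features compared). In 15 the construct cells were higher (34.1%, against 23.4% of features) and in 5 lower (11.4%, against 200 of the 1111 features). These counts use CPM without the 2 dominant rows. In edgeR, which scaled by TMM, 31 members had a log2 fold change below 0 and 13 above 0. The direction was thus not the same under both scalings.

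**Figure D5:**
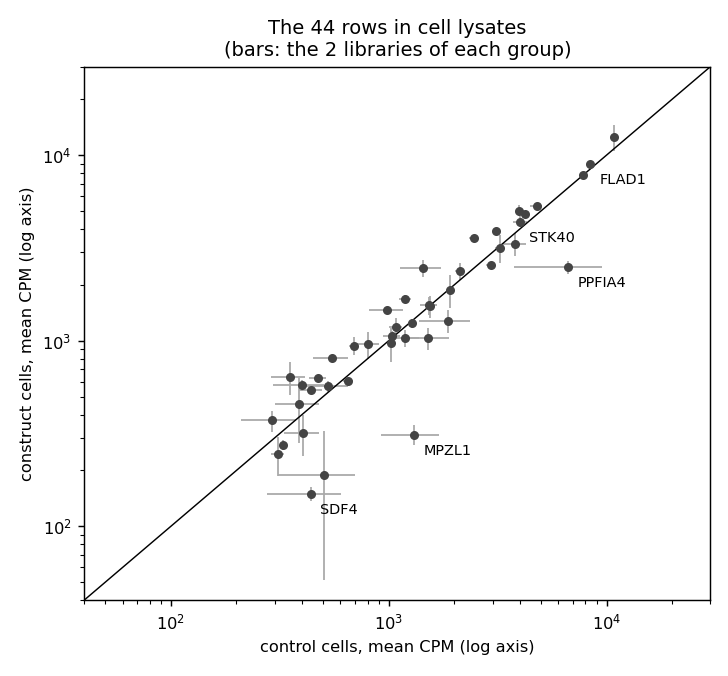
Each point is a member, placed by its mean CPM in control (x) and construct (y) cells on log axes, with bars that span the 2 libraries of each group and a line of equal levels. Most members lie along the line; SDF4, PPFIA4 and the longer MPZL1 row lie below it.

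For the contrasts that the rule used, the direction and the excess of calls are fixed by the choice of members, so the calls are a description and nothing is read from them. Between construct and control microvesicles edgeR called 32 of 44 members higher (72.7%; 4.76% of all 1113 features were called higher) and 0 lower (1.44%). Of the 32, 30 had counts in both construct libraries. That fit shares 1 estimate of the spread over all 4 groups. With the 4 microvesicle libraries alone the count was 0, with 32 members of the 34 tested at an unadjusted p under 0.05 (128 of all 1205 features tested). Between construct microvesicles and construct cells edgeR called 0 members, against 0.988% of features higher and 4.22% lower, with 4 members at an unadjusted p under 0.05 (306 of the 1113 features). DESeq2 called 3 members and 45 features higher there, and 0 members and 94 features lower.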

How the data were processed

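RNA of HEK 293T cell lysates and of their microvesicles was made into SMART-Seq2 and Nextera libraries, per the labels' protocols. Raw counts were deposited. Per the file headers, featureCounts 1.6.4 counted reads on genes of GENCODE release 19 (strand setting 2), with an R1 and an R2 column for every library. Per the submitters' processing notes, STAR and hg19 were used; the version of STAR was not given there. R1 and R2 were added, which used all 16 count columns. What R1 and R2 are is not stated; if they are mates, 1 fragment can count on rows of both strands.

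Members were found by the rule given in the report, and the 25 highest in construct microvesicles with a count in both libraries were named. The members, gene lists and tests were chosen with earlier results of these data known. Names came from the RefSeq GRCh38.p14 gene table, used for names only; that the counts sit at GRCh38 positions is inferred from abundance. Of 5363 chromosome 1 rows, 5178 had a current symbol.

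Tests used edgeR 4.0.16 (quasi-likelihood, TMM, filterByExpr) with 8 libraries and 4 groups fitted together and Benjamini-Hochberg adjustment over the 1113 features left by the filter; the code was tested on simulated data. An SE is the log2 fold change over the root of the F statistic. Alternatives were DESeq2 1.42.0, other scalings and filters, each read column, each library left out, the compared libraries alone, the replicate block and other limits of the rule. R 4.3.3 ran the fits; Python 3.11.15 with scipy 1.17.1, numpy 2.4.6 and pandas 2.3.3 did the rest, and matplotlib 3.10.9 drew the figures.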

Additional observations from a re-analysis of the deposited data

How the results depend on the processing

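The rule found 44 rows. It found 27 with a control limit of 0.05 and 27 with a construct limit of 1, all among the 44, and 25 (23 among them) with construct lysates alone as the cells; 8 other settings gave 31 to 65, among them 57 (37 of them members) with the 2 dominant rows kept in the totals. In that setting the members' share was 0.276% and 0.109% of control microvesicles I and II. Leaving out each library in turn gave 36 to 52 rows.

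Calls between the microvesicle groups use the values that chose the members and bear only on the fit. Of the 32 members called higher in construct than in control microvesicles, 0 passed with the 4 libraries alone (0 of 1205 features). This held with the same features kept (0 of 1113). Settings that keep the same features were chosen after seeing the data. Without each library the count ranged from 0 to 36. It was 0 without any 1 of the 4 cell libraries (9 or 12 with the same features), 20 without library II of the construct microvesicles (33 with the same features) and 20 without library II of the control ones (14 with the same features). The other 7 settings gave 30 to 44 members. In cells the count of 0 members became 4 (all lower in construct cells) with the 4 libraries alone and the same features; it was 0 in the other 24 settings, leaving out each library included.

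Between construct microvesicles and their cells, the count of 0 became 1 without the low-count filter (93 of 4024 features called). It became 1 with R1 alone (40 of 728), 2 with R2 alone (41 of 687) and 3 with DESeq2 (139 of 1113). It also moved in some fits that left out 1 library and so kept 1 in its group. With the same features, leaving out construct microvesicle library III gave 6 members higher and 2 lower (49 and 74 of 1113 features), and leaving out library II gave 0 higher and 5 lower (33 and 69 features). With the replicate block it was 0, and the features called went from 58 to 76. The block takes shared numerals as pairs; same-numbered deviations from group means correlated at -0.0318 (construct) and 0.0215 (control), so the data give no hint of pairing. No paired analysis was possible for construct against control groups, because they share only numeral II.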
